A study of Homo sapiens with 9 samples.

Results

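The genes described here are the well-expressed ZNF genes of LNCaP prostate cancer cells: protein-coding genes whose symbol is ZNF followed by digits, with an optional final letter, and whose mean level was at least 10 CPM, counts scaled to a common library total, over the 9 libraries of the study. That rule gave 272 genes of the 509 protein-coding ZNF genes and of the 60880 gene rows in each count table. The members were chosen by their mean CPM over all libraries, so their level is a description, and the rule used no difference between groups. The set was, however, chosen with earlier results of these data known. All 272 passed the low-count filter of the test, and the lowest count of any of them in any library was 142.

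ZNF proteins carry C2H2 zinc fingers, small folds held by a zinc ion that each contact a few bases of DNA, and an array of fingers reads a longer sequence. The largest class also carries a KRAB domain, which binds the corepressor TRIM28 (KAP1). TRIM28 in turn brings the histone methyltransferase SETDB1, HP1 proteins and the NuRD deacetylase complex, so that the bound DNA, often a retrotransposon, is packed into H3K9-methylated chromatin. Many KRAB genes lie side by side on chromosome 19, where they arose by repeated local duplication. ZNF proteins without KRAB include transcriptional activators, corepressor subunits, RNA-binding proteins and ribosome-associated proteins.

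The libraries measured total RNA by paired-end sequencing and fell into 3 groups of 3, all labelled LNCaP, an androgen-responsive line derived from a prostate cancer metastasis, and all labelled with a time of 24 h. Rescue cells overexpressed UGT2B28, an enzyme that glucuronidates androgens, in the UGT2B28 knockdown background, and the protocol gives 1 mg/mL G418 for their selection. UGT2B28 knockdown cells carried the label KD4 and were selected with 3 µg/mL puromycin. Control cells carried the label NT, with no selection stated for them. The labels name a single knockdown line, from which the rescue line was made, and do not say whether the 3 libraries of a group came from separate cultures, so p-values measure only how far such libraries scatter, and that scatter may be technical.

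Each library held 20300744 to 26459528 counts in genes. UGT2B28 had 1124, 1554 and 1857 counts in rescue libraries, 17, 8 and 1 in knockdown libraries and 25, 4 and 10 in control libraries, so a lower level in knockdown than in control cells was not detectable at this depth (adjusted p = 0.521), and that group is named by its label. All 8 luminal prostate markers reported here, such as KLK3, were at 1 CPM or more in each group. Their summed level was 8767 to 9661 CPM in rescue, 8701 to 9193 CPM in knockdown and 3975 to 4226 CPM in control libraries, a difference between the cell lines that moved with the groups compared below and whose part in the results was not tested. Of the basal, fibroblast, endothelial, immune and neuroendocrine lists, at most 1 marker each reached 1 CPM in a group. The fibroblast list, carried by COL1A1, summed to 57.9 to 70.6 CPM in rescue, 42.5 to 52.6 CPM in knockdown and 62.0 to 71.8 CPM in control libraries, and the other lists to at most 7.23 CPM in any library.

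By translated coding sequence, 166 of the 272 genes held a KRAB pattern and 106 did not, and 19 held the pattern of a SCAN domain, a dimerization module. Genes with KRAB had a median of 12.5 finger matches and genes without it a median of 7. The highest number, 34, was in ZNF462. Chromosome 19 held 124 of the 272 genes, 100 of them with KRAB. As a group, the 272 genes summed to 9175 ± 228 CPM in rescue, 9551 ± 210.3 CPM in knockdown and 10077 ± 218 CPM in control cells (SD, n = 3 each). The control libraries, at 9908 to 10322 CPM, lay above the knockdown libraries, at 9345 to 9765 CPM. In bulk RNA, fewer cells with a transcript and less of it per cell cannot be told apart.

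Per kilobase of exon, ZNF217 had the highest level, at 46.0 CPM per kilobase, followed by ZNF358 at 32.8 and ZNF24 at 32.0. ZNF217 is an oncoprotein of luminal breast cancer that acts with the CoREST corepressor and the demethylase LSD1. It had 212, 208 and 236 CPM in rescue, 279, 267 and 267 CPM in knockdown and 398, 352 and 339 CPM in control libraries. These groups do not overlap, and all of its 3 contrasts passed the test (knockdown over control -0.42 ± 0.07, adjusted p = 6.17e-05; rescue over knockdown -0.31 ± 0.07, adjusted p = 0.00604). Without rescue replicate 2 the rescue over knockdown call for ZNF217 was lost. ZNF24, a SCAN protein known to repress VEGFA, averaged 276 ± 9.64 CPM in rescue, 269 ± 23.2 CPM in knockdown and 250 ± 6.69 CPM in control cells, and no contrast passed. ZNF207 (BuGZ), a spindle assembly protein, ZNF592 and ZNF770 completed the top 5 by CPM. Of these 3, ZNF592 alone passed a test, in rescue over control (-0.23 ± 0.08, adjusted p = 0.0187), and lost it when any of 4 libraries was left out.

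No gene of the set was switched on or off. The criterion was an adjusted p under 0.05, a change of at least 8-fold and a level under 1 CPM in the lower group, and 0 of 272 met it in any of the 3 contrasts (knockdown over control, rescue over knockdown, rescue over control). The fold and the adjusted p alone were met by 1.28%, 0.114% and 1.58% of all tested genes. Among the 9824 tested genes at 10 CPM or more they were met by 14, 1 and 23, so changes of that size were rare above the limit. Even a 4-fold change was not reached: 0 of 272 were called at 4-fold by edgeR, DESeq2 or limma voom in any of the 3 contrasts, and 0 at an unadjusted p under 0.05. Among all tested genes, 2.85%, 0.43% and 3.39% were called at 4-fold in these contrasts. Among tested genes that also averaged at least 10 CPM those shares were 0.56%, 0.0305% and 0.682%. The mean of every member stayed above 1 CPM in all groups. The lowest group means were 8.02 CPM for ZNF346 in rescue, 8.62 CPM for ZNF844 in knockdown and 6.66 CPM for ZNF737 in control cells.

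**Figure D1:**
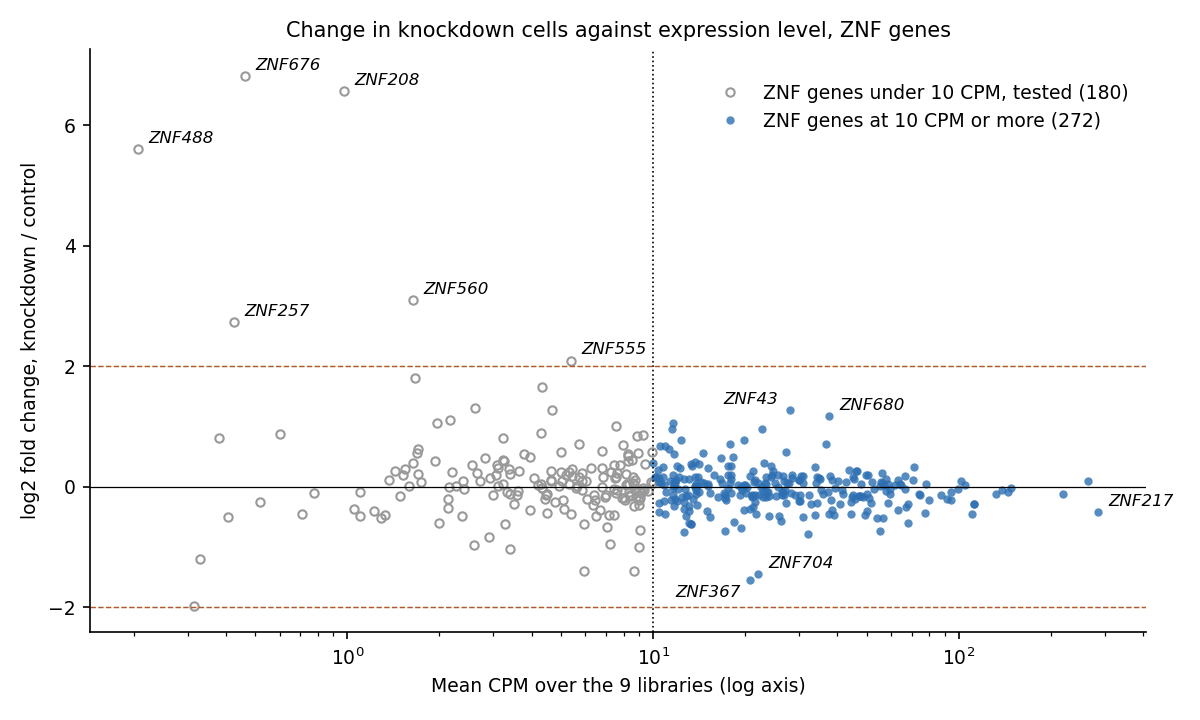
The log2 fold change of knockdown over control (vertical axis) is plotted against the mean CPM over the 9 libraries (horizontal log axis) for every tested protein-coding ZNF gene, 272 at 10 CPM or more (filled) and 180 under it (open); the dotted line marks the limit and the dashed lines mark 4-fold. Genes at or above the limit lie between -1.55 for ZNF367 and 1.27 for ZNF43, and the points above the upper dashed line are all under the limit.

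Knockdown cells set against control cells address which ZNF genes differ between the line labelled knockdown and the control line. The stated drug selection differs between the groups, so its effect cannot be told apart from that of UGT2B28 in any contrast. KRAB genes of the primate-expanded families on chromosomes 19 and 7, ZNF43, ZNF680, ZNF737 and ZNF107, were among the genes that rose most, by 0.77 to 1.27 on the log2 scale. ZNF367 and ZNF704, both without KRAB, fell most, to about the same level in knockdown as in rescue cells. In all, 28 members were higher and 50 lower in knockdown cells, 78 of 272 or 28.7%. The same test called 32.1% of all tested genes, 16.5% higher and 15.6% lower, and 41.8% of tested genes at 10 CPM or more. The share of ZNF genes called lies below both, though the genes of these sets were not matched to the members in level. The libraries of the groups did not overlap for 102 members, against 42.5% of all tested genes. At least 2-fold changes were called in 5 members, against 7.86% of all tested genes and 290 of the 9824 at 10 CPM or more. Tested against a fold change of 1.5 instead of 1, 5 members were higher and 2 lower.

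ZNF43 had 40.8, 40.6 and 34.7 CPM in knockdown libraries, against 19.5, 13.3 and 15.1 CPM in control libraries (log2 fold change 1.27 ± 0.12, adjusted p = 1.97e-09). ZNF680 had 45.3, 55.7 and 45.8 CPM in knockdown libraries, against 19.6, 24.2 and 21.6 CPM in control libraries (1.17 ± 0.11, adjusted p = 1.30e-09). ZNF737 had 12.8, 13.2 and 12.9 CPM in knockdown libraries, against 6.21, 7.24 and 6.54 CPM in control libraries (0.96 ± 0.14, adjusted p = 5.40e-06). In each of the 3 genes the lowest knockdown library lay above the highest control library by a wide margin. ZNF107, on chromosome 7 like ZNF680, had 25.6, 22.8 and 25.5 CPM in knockdown libraries, against 13.2, 17.4 and 12.8 CPM in control libraries (0.77 ± 0.12, adjusted p = 1.55e-05). These 4 calls held when any of the 9 libraries was left out.

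The promoters of these 4 genes are shown because they share a sequence feature besides the direction of change. Each holds CCAATCAG, the core bound by the factor NF-Y, in 2 copies 10 to 40 bases apart, printed in capitals. The lines give 200 bases directly upstream of the annotated start, on the gene's strand, from RefSeq (GRCh38.p14). They cover chr19:21836183-21836382 (minus strand) for ZNF43, chr19:20565782-20565981 (minus strand) for ZNF737, chr7:64563072-64563271 (minus strand) for ZNF680 and chr7:64665933-64666132 (plus strand) for ZNF107. ZNF595, a gene that fell, at chr4:53121-53320 (plus strand), and ZNF208, a gene under the limit with a change beyond 8-fold, at chr19:22010944-22011143 (minus strand), hold the same pair and are given for comparison.
ZNF43: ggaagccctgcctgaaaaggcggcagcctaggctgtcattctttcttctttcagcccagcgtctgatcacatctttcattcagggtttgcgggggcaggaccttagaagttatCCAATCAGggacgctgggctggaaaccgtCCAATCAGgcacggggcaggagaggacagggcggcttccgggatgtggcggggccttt
ZNF737: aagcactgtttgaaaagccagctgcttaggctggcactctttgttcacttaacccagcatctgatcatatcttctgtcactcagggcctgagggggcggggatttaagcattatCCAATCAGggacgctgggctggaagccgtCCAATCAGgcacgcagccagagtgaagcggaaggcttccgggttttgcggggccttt
ZNF680: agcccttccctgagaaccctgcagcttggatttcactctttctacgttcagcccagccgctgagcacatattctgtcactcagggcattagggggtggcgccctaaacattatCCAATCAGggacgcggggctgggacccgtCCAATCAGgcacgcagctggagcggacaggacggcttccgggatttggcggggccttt
ZNF107: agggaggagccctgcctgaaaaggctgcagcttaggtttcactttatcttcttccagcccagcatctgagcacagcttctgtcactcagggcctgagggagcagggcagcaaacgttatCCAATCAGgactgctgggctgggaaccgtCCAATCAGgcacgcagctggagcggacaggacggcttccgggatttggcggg
ZNF595: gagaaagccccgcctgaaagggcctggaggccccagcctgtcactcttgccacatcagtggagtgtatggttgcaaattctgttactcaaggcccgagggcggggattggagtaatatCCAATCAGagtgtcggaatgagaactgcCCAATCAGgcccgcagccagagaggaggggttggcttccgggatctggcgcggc
ZNF208: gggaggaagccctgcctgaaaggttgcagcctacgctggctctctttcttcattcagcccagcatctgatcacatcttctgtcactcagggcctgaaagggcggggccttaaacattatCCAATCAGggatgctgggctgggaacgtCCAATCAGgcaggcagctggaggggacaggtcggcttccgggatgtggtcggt

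A RefSeq promoter window, 250 bases before to 50 after the start, was matched for 238 of the 272 members. The pair on the gene's strand was found in 18 of these 238 (7.56%), in 32 of 428 protein-coding ZNF promoters (7.48%) and in 42 of all 15842 protein-coding promoters (0.265%). In global alignments of the windows, ZNF43 was identical to ZNF107 at 84.2% of aligned positions, to ZNF208 at 81.1%, to ZNF680 at 80.9% and to ZNF737 at 78.0%, and to ZNF595 at 70.8%, so the pair is 1 element of promoters that are alike along much of their length. Of the 18 members with the pair, 7 were higher and 2 lower in knockdown against control, 50% called. Their median log2 fold change was 0.23. Of the 220 members with a window but no pair, 18 were higher and 41 lower, 26.8% called, with a median of -0.04. Among all tested genes 16.5% were higher and 15.6% lower, and 41.8% of those at 10 CPM or more were called. The 7 were ZNF43, ZNF680, ZNF737, ZNF107, ZNF77, ZNF430 and ZNF678, and the 2 were ZNF141 and ZNF595. The ZNF678 call was lost when any of 4 libraries was left out. The pair was searched for after the values had been seen, its members share sequence, and these counts are a description. A match of letters does not show that a factor binds there.

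Other KRAB genes that rose included ZNF350 (ZBRK1), a BRCA1-binding repressor of GADD45A. It had 32.9, 27.1 and 27.2 CPM in knockdown libraries, against 13.3, 16.8 and 14.9 CPM in control libraries (0.96 ± 0.12, adjusted p = 2.21e-07). ZNF10 (KOX1), the protein whose KRAB domain is used in engineered repressors, averaged 19.5 ± 2.53 CPM in knockdown and 14.1 ± 2.41 CPM in control cells (0.48 ± 0.13, adjusted p = 0.00688). That call did not survive leaving out knockdown replicate 2. ZNF75D, which carries both SCAN and KRAB, and ZNF77 rose by 0.72 ± 0.14 and 0.68 ± 0.15. ZNF91, known to silence SVA retrotransposons, averaged 62.3 ± 5.73 CPM in knockdown and 53 ± 4.11 CPM in control cells. Its call (0.23 ± 0.09, adjusted p = 0.0451) was lost when any of 7 of the 9 libraries was left out, and its libraries overlap. ZNF93, known to silence LINE-1 elements, did not pass (-0.23 ± 0.15, adjusted p = 0.257).

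Members without KRAB that rose were led by ZNF821, with 12.7, 19.3 and 13.2 CPM in knockdown libraries and 7.45, 6.59 and 7.63 CPM in control libraries (1.06 ± 0.16, adjusted p = 9.61e-06). Of its exon bases 29.2% also lie in AC010653.2 on the opposite strand, and since the strand setting of the counting is not given in the sources used here, reads of the 2 genes cannot be told apart. ZNF518A, with 44.9, 38.9 and 48.4 CPM in knockdown libraries and 26.9, 26.6 and 27 CPM in control libraries, rose by 0.71 ± 0.10. ZNF296, known in mouse as a pluripotency-associated factor, had 16.5, 19.1 and 16 CPM in knockdown libraries and 12.6, 8.82 and 8.54 CPM in control libraries (0.78 ± 0.15, adjusted p = 2.04e-04). ZNF827, which recruits the NuRD complex to telomeres, rose by 0.56 ± 0.15 and was higher still in rescue cells. Its libraries are given with the rescue results.

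**Figure D2:**
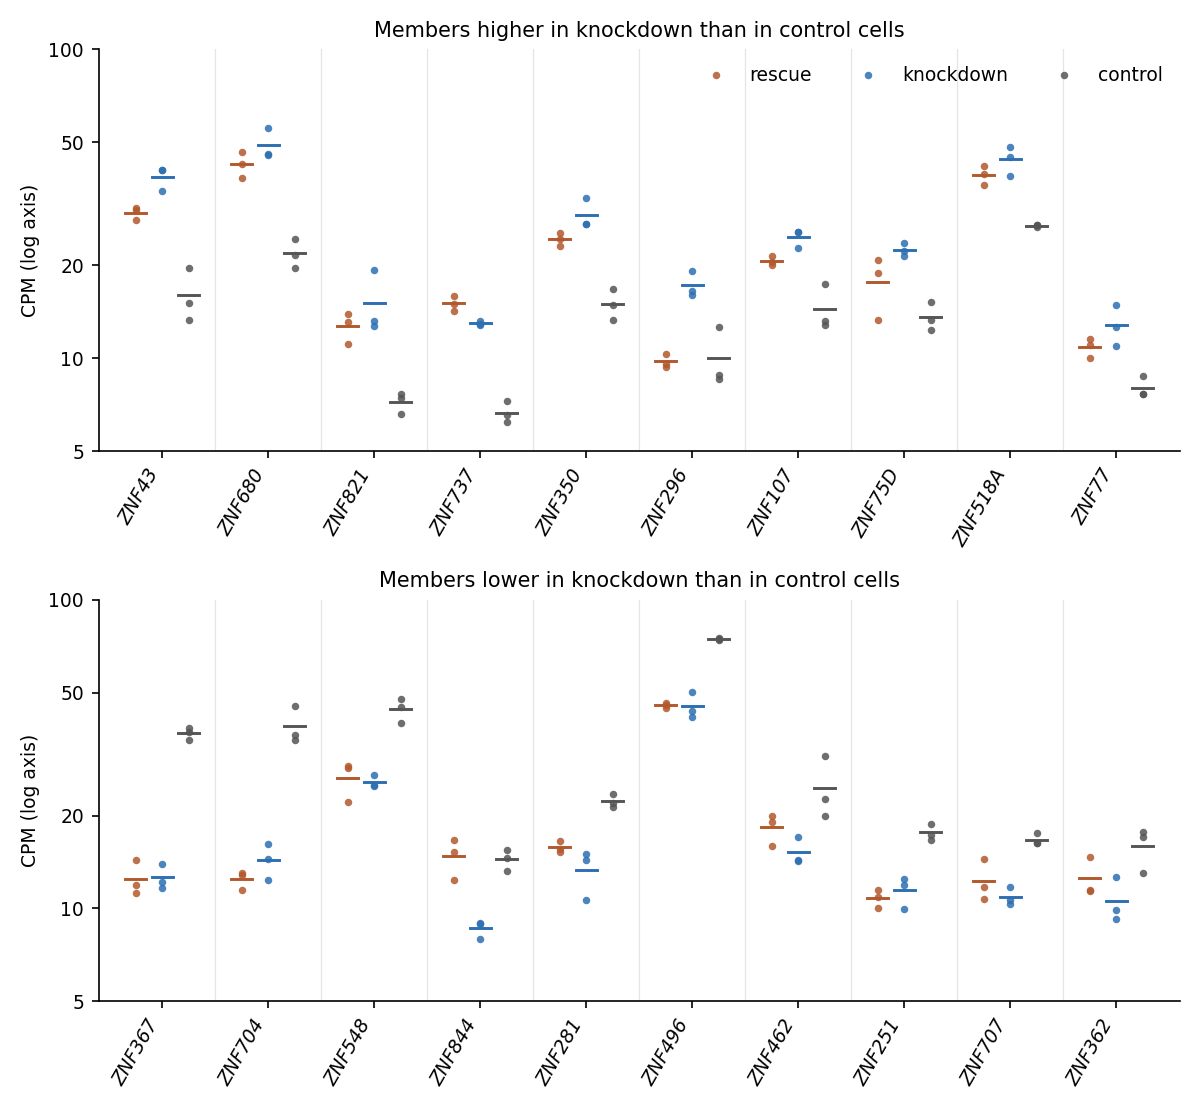
Level in CPM (vertical log axis) in each library for the 10 members with the largest rise (top) and the 10 with the largest fall (bottom) in knockdown against control among called members whose libraries do not overlap; points are libraries and lines are group means, in the order rescue, knockdown, control. ZNF367 stands at 11.2 to 14.4 CPM in the 6 rescue and knockdown libraries and at 35.1 to 38.5 CPM in control libraries.

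Among the genes that fell, ZNF367 had 11.7, 14 and 12.2 CPM in knockdown libraries, against 38.5, 35.1 and 37.2 CPM in control libraries (-1.55 ± 0.12, adjusted p = 3.11e-11). ZNF704 had 14.4, 12.4 and 16.2 CPM in knockdown libraries, against 45.2, 35.1 and 36.4 CPM in control libraries (-1.44 ± 0.12, adjusted p = 2.63e-10). The knockdown and control libraries lay far apart in both genes. These 2 genes were the ones that passed the test against a 1.5-fold change on the lower side. The 200 bases upstream of ZNF367 (chr9:96418371-96418570, minus strand, RefSeq, GRCh38.p14) are shown because this is the largest fall of the set and because they hold an E2F motif, TTTCGCGC, on the reverse strand, where it reads GCGCGAAA (capitals).
ZNF367: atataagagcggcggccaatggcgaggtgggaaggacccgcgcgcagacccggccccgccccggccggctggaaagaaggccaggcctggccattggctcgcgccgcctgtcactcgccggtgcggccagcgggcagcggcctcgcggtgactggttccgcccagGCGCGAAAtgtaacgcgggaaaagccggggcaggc
That motif was found on either strand in 0.814% of all protein-coding promoter windows and in 1.26% of member windows, 3 of 238. Other motifs stood in member windows at 17.2% for the ETS motif CCGGAAGT (6.19% of all windows) and 47.1% for CCAAT (36.4%), each on both strands, and CCAAT includes the CCAATCAG matches. The median number of CpG pairs in a window was 17 in the 25 members that were higher with a window, 26 in the 43 that were lower and 23 in the 170 that were not called.

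Of the 50 lower members 32 held the KRAB pattern and 18 did not, and the lower members without it included transcription factors and corepressor subunits. ZNF281, a GC-box factor of pluripotent and mesenchymal cells, averaged 13.3 ± 2.34 CPM in knockdown and 22.3 ± 1.11 CPM in control cells (-0.73 ± 0.13, adjusted p = 5.58e-05). ZNF462, whose haploinsufficiency causes Weiss-Kruszka syndrome, averaged 15.2 ± 1.57 and 24.5 ± 5.86 CPM in knockdown and control cells (-0.69 ± 0.14, adjusted p = 4.41e-04). ZNF703, a corepressor amplified in luminal breast cancer, had 64.8, 59.3 and 64.7 CPM in knockdown libraries, against 109, 86.3 and 90.1 CPM in control libraries (-0.60 ± 0.09, adjusted p = 7.81e-06). ZNF687 fell, at -0.47 ± 0.09. ZNF592 and ZNF532, described as its complex partners, were at -0.02 ± 0.08 and 0.03 ± 0.09 and did not pass. ZNF335, a subunit of H3K4 methyltransferase complexes, was at -0.45 ± 0.10, adjusted p = 8.62e-04. Of 27 tested genes in the list of ZNF chromatin and transcription factors without KRAB, 3 were higher and 8 lower, and the 3 that were higher were ZNF608, ZNF503 and ZNF827. The 40.7% called lies near the 41.8% of tested genes at 10 CPM or more. ZNF608 and ZNF503 and, among the 8, ZNF512 lie under the limit.

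KRAB genes that fell did so by less than ZNF367 and ZNF704. ZNF548 had 27.1, 25.1 and 25 CPM in knockdown libraries, against 44.9, 47.6 and 39.8 CPM in control libraries (-0.78 ± 0.11, adjusted p = 2.27e-06). ZNF496, a SCAN protein described as binding the methyltransferase NSD1, had 43.4, 50.1 and 41.8 CPM in knockdown libraries, against 74.9, 74.8 and 74.1 CPM in control libraries (-0.73 ± 0.09, adjusted p = 1.29e-07). It is listed with the KRAB repressors, though its coding sequence did not match the KRAB pattern. ZNF844 also fell, at -0.74 ± 0.15, as did ZNF251 at -0.62 ± 0.14 and ZNF707 at -0.62 ± 0.14. ZNF274, which binds the ends of ZNF genes and recruits SETDB1 to them, averaged 54.8 ± 5.94 CPM in knockdown and 66.1 ± 3.16 CPM in control cells (-0.27 ± 0.09, adjusted p = 0.0209), a call lost without control replicate 2, control replicate 3 or knockdown replicate 2. Of the 16 KRAB repressors with described targets, 3 were higher (ZNF350, ZNF10, ZNF91) and 3 lower (ZNF496, ZNF202, ZNF274). That is 37.5% called, against 32.1% of all tested genes and 41.8% of those at 10 CPM or more.

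Genes with KRAB were called higher in 21 and lower in 32 of 166 cases, and genes without KRAB in 7 and 18 of 106. On chromosome 19, 14 were higher and 22 lower of 124, and elsewhere 14 and 28 of 148. Of the 11 members on chromosome 8, 0 were higher and 5 lower, among them ZNF704, ZNF703, ZNF251 and ZNF707. Chromosome 8, unlike chromosome 19, was not among the splits set beforehand, and its counts are a description. The shares called were 31.9% with KRAB, 23.6% without it, 29.03% on chromosome 19, 28.4% elsewhere and 45.5% on chromosome 8, against 32.1% of all tested genes and 41.8% of those at 10 CPM or more. No difference between these classes was tested. At least 10% of exon bases lay in another gene for 59 members, and among the other 213, 23 were higher and 41 lower. Of 10 RNA and ribosome factors, 0 were higher and 1 was lower: ZNF638, which takes part in HUSH silencing of unintegrated retroviral DNA, averaged 63.7 ± 5.19 CPM in knockdown and 80.4 ± 4.22 CPM in control cells (-0.33 ± 0.09, adjusted p = 0.00377). ZNF598, the ubiquitin ligase that senses collided ribosomes, was at -0.12 ± 0.07, adjusted p = 0.246.

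Rescue cells set against knockdown cells address which ZNF genes differ with UGT2B28 overexpressed in the knockdown line and a different drug stated for selection. Several members moved away from their knockdown level towards their control level, among them ZNF296, ZNF57 and ZNF26, which were lower in rescue than in knockdown cells, and ZNF844, ZNF595 and ZNF778, which were higher. Others moved further from control, among them ZNF292, ZNF703 and ZNF202, the last with a call lost in 8 of 9 leave-one-out fits. In all, 9 members were higher and 23 lower in rescue cells, 32 of 272 or 11.8%, against 10.1% of all tested genes (5.2% higher, 4.88% lower) and 14.7% of tested genes at 10 CPM or more. The libraries did not overlap for 85 members, against 27.5% of all tested genes. The fitted log2 fold changes lay between -0.82 and 0.78, so no member reached 2-fold. That fold was called in 1.54% of all tested genes and in 37 of the 9824 at 10 CPM or more. The lower count was 10 without knockdown replicate 2, rescue replicate 1 or rescue replicate 2 and 11 without knockdown replicate 1, and the higher count was 5 without knockdown replicate 3 or rescue replicate 1.

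The 2 contrasts that involve knockdown cells share the knockdown libraries, so a deviation of those libraries moves both in opposite directions, and they are given side by side. ZNF844 had 15.2, 12.4 and 16.7 CPM in rescue, 7.97, 9 and 8.88 CPM in knockdown and 15.5, 14.6 and 13.2 CPM in control libraries. The rescue and control libraries of ZNF844 overlap and lie above the knockdown libraries (rescue over knockdown 0.78 ± 0.15, adjusted p = 5.03e-04; knockdown over control -0.74 ± 0.15, adjusted p = 2.02e-04). ZNF595 had 56.7, 58.3 and 61.2 CPM in rescue, 40.5, 39.1 and 37.8 CPM in knockdown and 52.1, 50.4 and 52.5 CPM in control libraries. It passed in rescue over knockdown (0.59 ± 0.09, adjusted p = 2.11e-05) and in knockdown over control (-0.40 ± 0.09, adjusted p = 5.46e-04), and its rescue libraries also lay above its control libraries, which did not pass (adjusted p = 0.0863). ZNF778 averaged 23.6 ± 1.42 CPM in rescue, 16.8 ± 1.7 CPM in knockdown and 21.8 ± 2.91 CPM in control cells (rescue over knockdown 0.48 ± 0.12, adjusted p = 0.00833). Leaving out knockdown replicate 2 ended this call, and the knockdown over control call of ZNF778 was lost when any of 3 libraries was left out. ZNF772 averaged 26.7 ± 1.15, 20.8 ± 0.752 and 30.9 ± 4.45 CPM in rescue, knockdown and control cells, and its rescue over knockdown call (0.36 ± 0.11, adjusted p = 0.0359) was lost without any of the 6 libraries compared.

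ZNF296 had 9.56, 9.39 and 10.3 CPM in rescue and 16.5, 19.1 and 16 CPM in knockdown libraries (-0.82 ± 0.15, adjusted p = 4.95e-04), the largest fall. ZNF57 had 8.53, 7.26 and 9.66 CPM in rescue, 13.2, 16.7 and 15 CPM in knockdown and 10.7, 9.6 and 7.86 CPM in control libraries (rescue over knockdown -0.82 ± 0.16, adjusted p = 7.48e-04; knockdown over control 0.67 ± 0.16, adjusted p = 0.00143). Of its exon bases, 13.2% lie in an antisense gene. ZNF26 had 21.7, 19.3 and 18.8 CPM in rescue, 28.7, 27.9 and 27.3 CPM in knockdown and 21.9, 21.2 and 20.4 CPM in control libraries. Its rescue and control libraries overlap and lie below every knockdown library (rescue over knockdown -0.49 ± 0.11, adjusted p = 0.00243; knockdown over control 0.40 ± 0.11, adjusted p = 0.00423). ZNF354A and ZNF165, a cancer-testis antigen, were lower in rescue than in knockdown cells, at -0.44 ± 0.12 and -0.41 ± 0.12; the ZNF354A call was lost when any of 3 libraries was left out and the ZNF165 call when any of 4 was.

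Genes that moved in rescue cells and had not passed in knockdown cells included 2 of the 10 RNA and ribosome factors, 1 lower and 1 higher. The 20% called compares with 10.1% of all tested genes and 14.7% of those at 10 CPM or more. ZNF346 (JAZ), a double-stranded RNA-binding protein, had 9.21, 7.42 and 7.42 CPM in rescue and 11.7, 13.9 and 10.7 CPM in knockdown libraries (-0.60 ± 0.15, adjusted p = 0.00994), which no longer passed when knockdown replicate 2, rescue replicate 2 or rescue replicate 3 was left out. ZNF385A (HZF), an RNA-binding p53 cofactor, had 38.9, 41.4 and 38.9 CPM in rescue and 23.5, 28.4 and 29.5 CPM in knockdown libraries (0.55 ± 0.12, adjusted p = 0.00383). In both genes the libraries of the groups did not overlap. ZNF783 was higher (0.72 ± 0.14, adjusted p = 0.00114), with 29.5% of its exon bases in a pseudogene on its own strand. ZNF787 and ZNF581 were lower (-0.43 ± 0.08, adjusted p = 6.89e-04; -0.40 ± 0.09, adjusted p = 0.00316), and ZNF581 shares 23.4% of its exon bases with ZNF580. ZNF880 and ZNF506 were higher by 0.37 ± 0.12 and 0.42 ± 0.14, and both calls were lost when any of several libraries was left out. ZNF292, which had also passed in knockdown against control (-0.39 ± 0.09, adjusted p = 9.55e-04), had 46.1, 41.6 and 40.6 CPM in rescue and 66.1, 57.2 and 66.9 CPM in knockdown libraries (-0.57 ± 0.09, adjusted p = 6.12e-05).

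**Figure D3:**
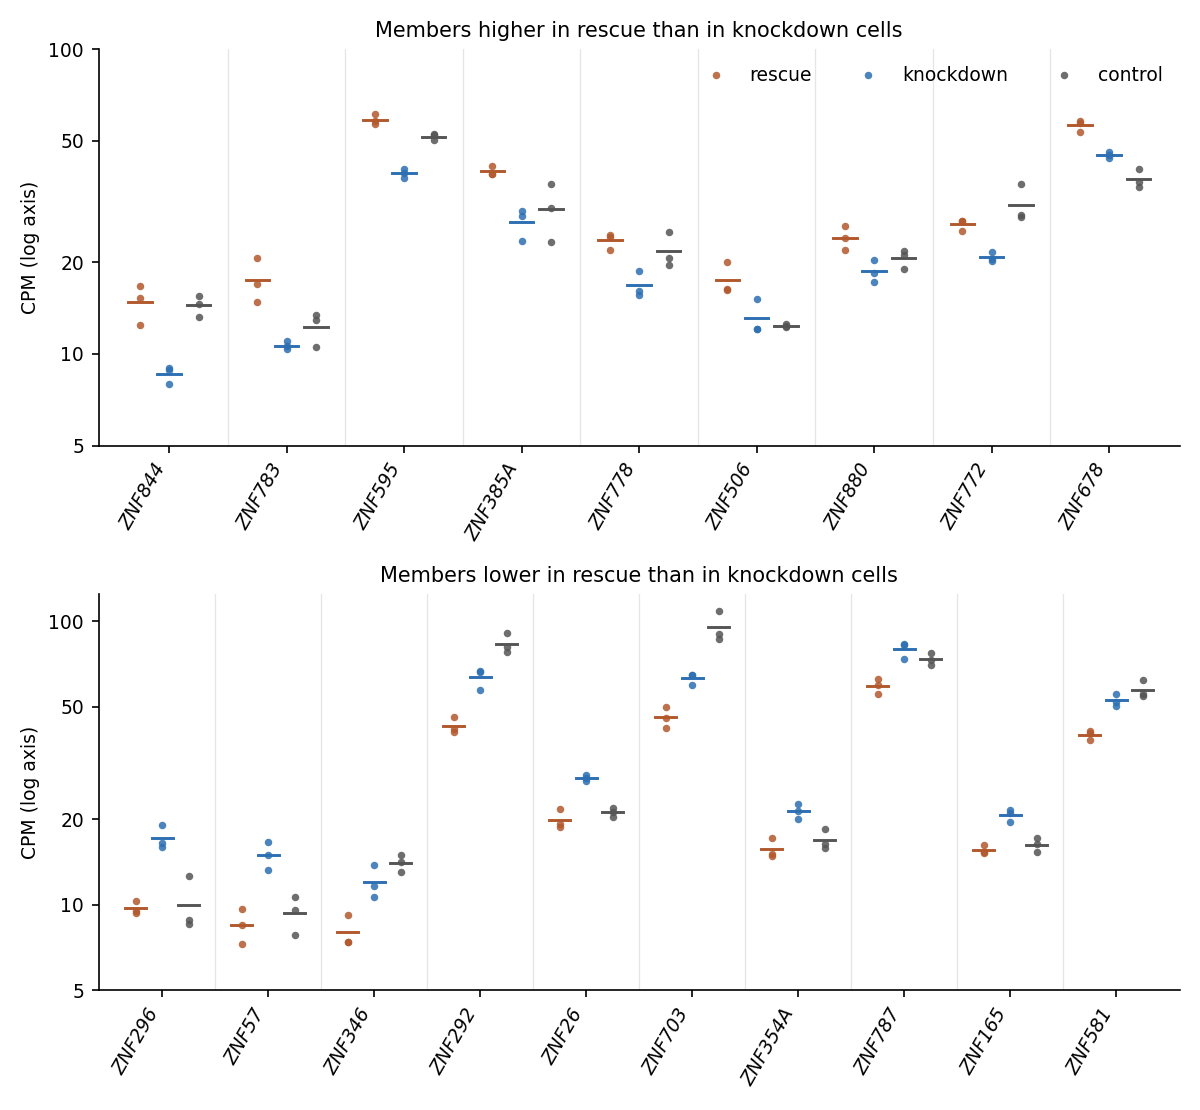
Level in CPM (vertical log axis) in each library for the 9 members with the largest rise (top) and the 10 with the largest fall (bottom) in rescue against knockdown among called members whose libraries do not overlap; points are libraries and lines are group means, in the order rescue, knockdown, control. ZNF844 and ZNF595 lie lowest in knockdown libraries, ZNF296, ZNF57 and ZNF26 lie highest in them, and ZNF292 and ZNF703 are lowest in rescue and highest in control libraries.

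Rescue cells set against control cells combine the knockdown background, the overexpressed UGT2B28 and the stated drug selection. Here 29 members were higher and 69 lower, 98 of 272 or 36.0%, against 37.8% of all tested genes (19% higher, 18.8% lower) and 49.3% of tested genes at 10 CPM or more. The higher count was 18 without rescue replicate 1. The libraries did not overlap for 123 members, against 48.1% of all tested genes. Changes of at least 2-fold were called in 4 members, against 9.37% of all tested genes and 396 of the 9824 at 10 CPM or more. The median log2 fold change of the members was -0.09, with 168 of 272 below 0, and that of all tested genes was -0.0025. The corresponding medians of the members were -0.03 for knockdown over control (145 below 0; all tested genes 0.010) and -0.06 in rescue against knockdown (167 below 0; all tested genes -0.0048). Among members without KRAB, 10 were higher and 31 lower of 106, and among those with KRAB 19 were higher and 38 lower of 166.

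**Figure D4:**
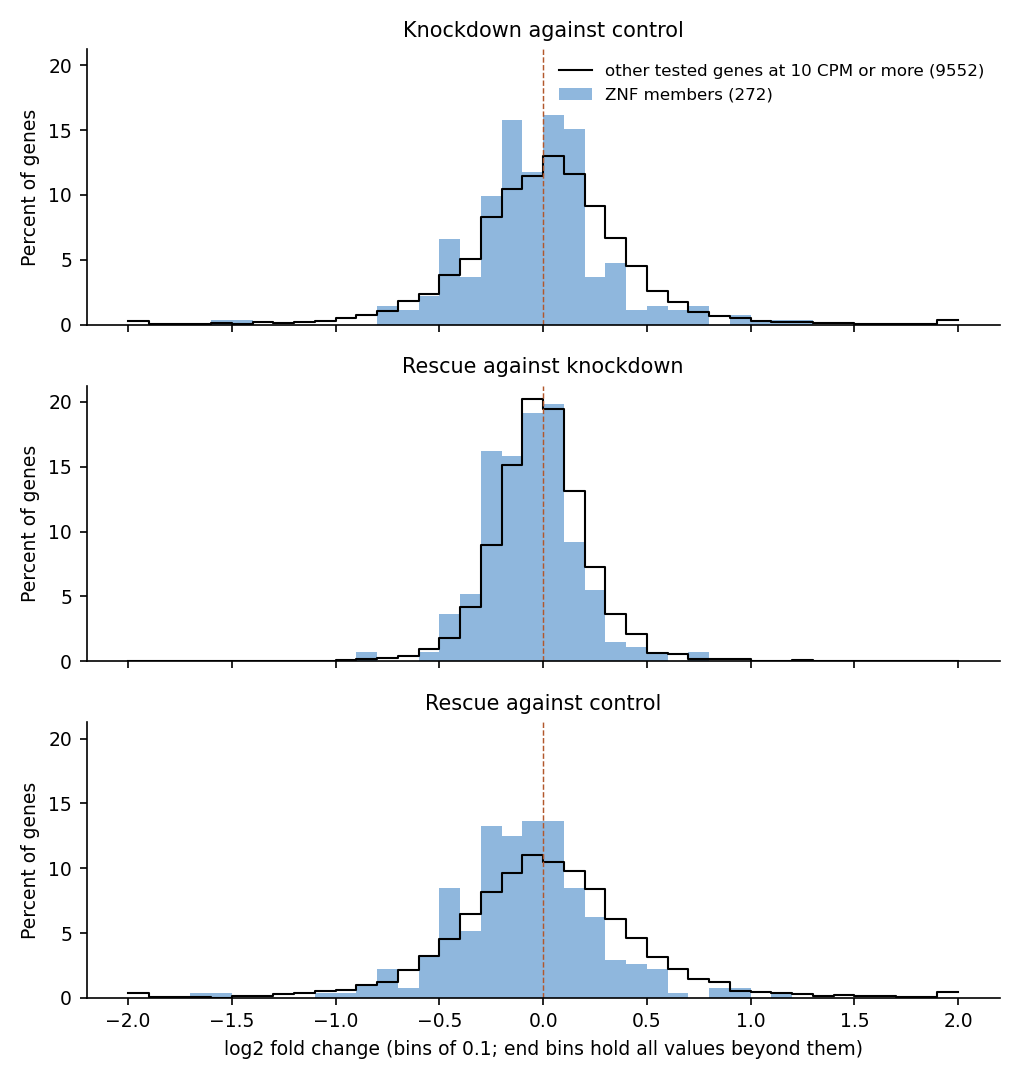
Share of genes in percent (vertical axis) in bins of log2 fold change (horizontal axis) for the 272 ZNF members (bars) and the 9552 other tested genes at 10 CPM or more (line), in knockdown against control, rescue against knockdown and rescue against control; the end bins hold all values beyond them. The members lie between -1.55 and 1.27, -0.82 and 0.78, and -1.65 and 1.17 in the 3 panels, and their medians are -0.03, -0.06 and -0.09.

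ZNF704 had 12.8, 11.4 and 13 CPM in rescue libraries, against 45.2, 35.1 and 36.4 CPM in control libraries (-1.65 ± 0.13, adjusted p = 1.55e-11), and ZNF367 had 14.4, 11.9 and 11.2 CPM in rescue libraries (-1.57 ± 0.12, adjusted p = 1.80e-11). ZNF703 had 50, 45.7 and 42 CPM in rescue libraries (-1.05 ± 0.09, adjusted p = 2.79e-10). ZNF292, a factor first described at the growth hormone gene and mutated in neurodevelopmental disease, averaged 42.8 ± 2.91 CPM in rescue and 83.1 ± 6.6 CPM in control cells (-0.96 ± 0.09, adjusted p = 9.03e-10). In these 4 genes every rescue library lay below every control library. ZNF202, a SCAN and KRAB repressor of lipid metabolism genes, fell, at -0.75 ± 0.12, and stood in between in knockdown cells, at 14.9 ± 1.23, 19.2 ± 0.912 and 25.2 ± 1.74 CPM in rescue, knockdown and control cells. Its rescue over knockdown value (-0.36 ± 0.12, adjusted p = 0.0476) was lost in all but 1 of the leave-one-out fits, with limma voom, with RLE factors and with no filter on low counts. ZNF483, ZNF628 and ZNF276 fell, at -0.88 ± 0.15, -0.83 ± 0.15 and -0.78 ± 0.14; ZNF276 shares 31.0% of its exon bases with FANCA on the opposite strand.

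ZNF737 led the genes that were higher, with 15.9, 14.9 and 14.2 CPM in rescue libraries, against 6.21, 7.24 and 6.54 CPM in control libraries (1.17 ± 0.14, adjusted p = 1.41e-07). ZNF827 had 21.4, 18.1 and 18.6 CPM in rescue, 16.8, 12.8 and 13.5 CPM in knockdown and 10.6, 10.8 and 7.95 CPM in control libraries. It passed in rescue over control (0.98 ± 0.15, adjusted p = 3.14e-06) and knockdown over control (0.56 ± 0.15, adjusted p = 0.00406), and its rescue over knockdown value just missed (0.43 ± 0.14, adjusted p = 0.0508). ZNF680, ZNF43, ZNF821 and ZNF350 were higher by 0.96 ± 0.11, 0.88 ± 0.12, 0.82 ± 0.16 and 0.70 ± 0.12. ZNF43 was at the same time lower in rescue than in knockdown cells (-0.39 ± 0.12, adjusted p = 0.0308), a call lost when any of 5 libraries was left out. ZNF678 had 58.1, 53.3 and 57.5 CPM in rescue and 40.5, 35.4 and 36.6 CPM in control libraries (0.58 ± 0.09, adjusted p = 5.69e-06). Of the 27 tested chromatin and transcription factors without KRAB, 1 was higher (ZNF827) and 12 lower, 48.1% called. Of the 10 RNA and ribosome factors 1 was higher (ZNF385A) and 3 lower, 40% called. The 3 were ZNF638, ZNF346 and ZNF473, the last a factor of histone mRNA processing. In this contrast 37.8% of all tested genes were called, and 49.3% of those at 10 CPM or more.

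The position of the genes was examined in runs of at least 4 protein-coding ZNF genes with no other protein-coding gene between them, in the gene order of GENCODE v29 (GRCh38). The runs were formed from the annotation, and the ones singled out were chosen after the values had been seen, so their counts are a description. In the 3 runs of chromosome 19 from ZNF101 to ZNF254, which hold 37 genes, 15 of them members, 12 of 31 tested genes were higher and 0 lower in knockdown against control. The 5 members among them were ZNF43, ZNF737, ZNF253, ZNF430 and ZNF91. In rescue against control 11 genes of these runs were higher and 1 lower, and in rescue against knockdown 2 were higher and 1 lower. The other 19 runs of chromosome 19 had 12 higher and 10 lower of 127 tested genes in knockdown against control, and 8 higher and 15 lower in rescue against control. Among all tested genes, 16.5% were higher and 15.6% lower in knockdown against control, and 19% and 18.8% in rescue against control. For rescue against knockdown those shares were 5.2% and 4.88%. On chromosome 12, the run of 6 members from ZNF605 to ZNF10 had 3 higher and 0 lower in knockdown against control (ZNF26, ZNF10, ZNF140). In rescue against knockdown 0 were higher and 3 lower (ZNF26, ZNF84 and ZNF891), and both sets of values use the knockdown libraries. In knockdown against control ZNF140 was at adjusted p = 0.0479 by edgeR. Of its exon bases, 13.5% also lie in ZNF891 on the opposite strand. The ZNF10 call was lost without knockdown replicate 2.

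**Figure D5:**
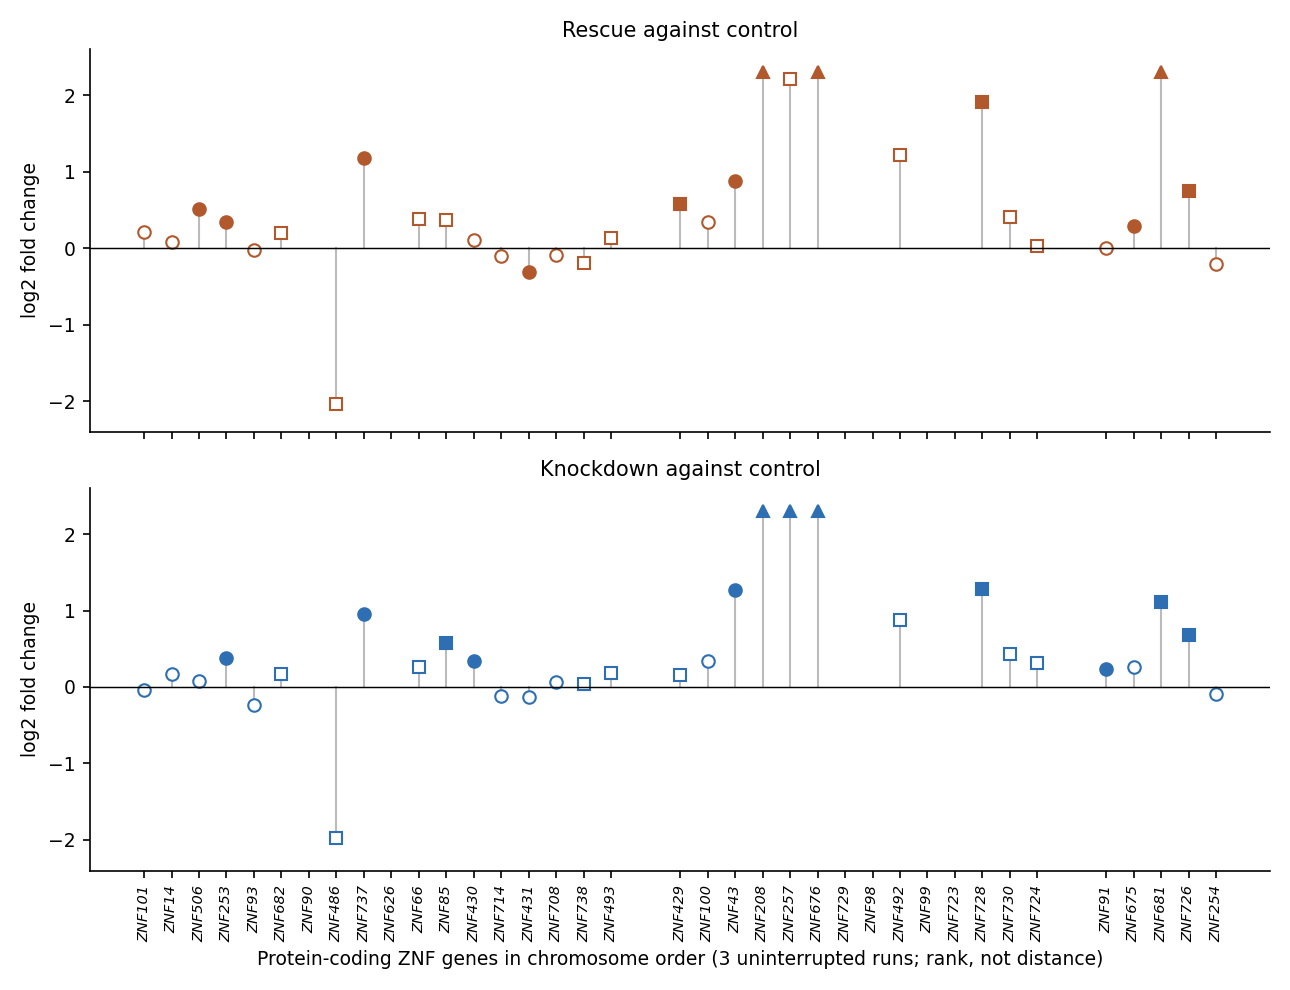
The log2 fold change of rescue over control (top) and knockdown over control (bottom) is plotted for the protein-coding ZNF genes of the 3 chromosome 19 runs from ZNF101 to ZNF254, in gene order; circles are members, squares are genes under 10 CPM, filled symbols have an adjusted p under 0.05, triangles are values above the axis, and genes with no symbol were not tested. Filled symbols lie above 0 in the knockdown panel, 12 in all, and in the rescue panel 11 lie above 0 and 1, ZNF431, below it; both panels use the same control libraries.

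The cofactors of KRAB proteins differed in direction. TRIM28 averaged 499 ± 28 CPM in rescue, 499 ± 22.1 CPM in knockdown and 539 ± 18.5 CPM in control cells and passed in no contrast. In knockdown against control, 4 of 17 genes of the corepressor complex were higher and 5 lower, 52.9%, against 32.1% of all tested genes and 41.8% of those at 10 CPM or more. CHD3, a NuRD ATPase that binds TRIM28, rose (0.39 ± 0.07, adjusted p = 1.45e-04), as did HDAC1, HDAC2 and ATF7IP, the partner of SETDB1. MTA1, another NuRD subunit, averaged 182 ± 7.38 CPM in knockdown and 285 ± 7.3 CPM in control cells (-0.65 ± 0.07, adjusted p = 1.51e-08), and CHD4, SETDB1, GATAD2A and GATAD2B also fell. In rescue against knockdown 0 were higher and 3 lower (HDAC1, HDAC2 and GATAD2B), where 10.1% of all tested genes were called, and in rescue against control 3 were higher and 5 lower, where 37.8% were. Of 11 HUSH and H3.3 silencing factors, 2 were higher and 3 lower in knockdown against control (45.5%), 1 and 0 for rescue over knockdown, and 2 and 4 for rescue over control. MPHOSPH8, the H3K9me3 reader of HUSH, averaged 70.9 ± 4.47 CPM in rescue, 50.5 ± 2.19 CPM in knockdown and 34.4 ± 0.835 CPM in control cells, and all of its 3 contrasts passed (rescue over control 1.04 ± 0.09, adjusted p = 9.85e-11). TASOR, the HUSH scaffold, rose in knockdown cells (0.72 ± 0.13, adjusted p = 5.27e-05), and MORC2, an ATPase recruited by HUSH, fell (-0.62 ± 0.09, adjusted p = 5.02e-06).

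At the limit of 10 CPM, the members just inside were ZNF184, ZNF575 and ZNF16, with mean levels of 10.0, 10.1 and 10.2 CPM, and the genes just outside were ZNF382, ZNF85 and ZNF773, with 9.96, 9.88 and 9.81 CPM. Of the 237 ZNF genes under the limit 180 were tested, and here changes beyond 8-fold did occur. In knockdown against control 4 of 180 met the switched-on criterion and 0 the switched-off one. In rescue against control 6 and 0 did, and in rescue against knockdown 0 and 0. By fold and adjusted p alone, 236 of all 18389 tested genes were called at 8-fold in knockdown against control, 14 of them at 10 CPM or more. In rescue against control those numbers were 290 and 23, so such calls came mostly from genes under the limit. ZNF208 had 11, 26 and 47 counts in rescue, 32, 39 and 57 counts in knockdown and 1, 0 and 0 counts in control libraries, a ratio of 125 for knockdown over control (exact 95% interval for counting error only, 22.1 to 4992). ZNF676, in the same run of ZNF genes, had 18, 27 and 13 counts in rescue, 10, 23 and 9 in knockdown and 0, 0 and 0 in control libraries. Taking 3 counts over the group as the floor, ZNF676 was at least 13.7-fold higher in knockdown than in control cells. ZNF488 had 18 counts in all in knockdown and 0 in control cells, at least 5.88-fold higher, so that bound lies under 8-fold and its place among the 4 rests on a fitted fold change over a group with 0 counts, and ZNF560 had 129 and 14 counts, a ratio of 9.03 (5.19 to 17.0). ZNF785 and ZNF681 met the criterion in rescue against control. ZNF785 had 665 and 65 counts in rescue and control cells, a ratio of 9.98 (7.73 to 13.1). ZNF681 had 339 and 40 counts, a ratio of 8.27 (5.95 to 11.8), and both intervals reach below 8-fold. The highest group mean among these 6 genes was 9.12 ± 1.98 CPM, of ZNF785 in rescue cells.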

How the data were processed

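Whole-number read counts per gene were deposited by the authors for 9 LNCaP libraries, 3 each of rescue, knockdown and control cells. FastQC, cutadapt, HISAT2, HTSeq and the hg19 build are named in the submitters' processing notes, with no versions, and the strand setting is not given in the sources used here. The summary rows (reads in no gene, ambiguous or not unique), 57.08% to 59.7% of the reads, were left out. Gene symbols were matched by Ensembl ID for 56414 rows in a symbol table and 444 more in GENCODE v29; 4022 rows had none. Gene type, chromosome, order and exon overlap came from GENCODE v29 (GRCh38), and no hg19 coordinates are printed. The 10 CPM limit used counts over the library total; levels in the text are CPM with TMM-scaled library sizes.

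Counts were tested with edgeR 4.0.16 (R 4.3.3): TMM, filterByExpr with a minimum count of 10 (18389 genes kept), a quasi-likelihood fit with 1 mean per group over all 9 libraries, and Benjamini-Hochberg adjustment over all tested genes in each of 3 contrasts. Called means an adjusted p under 0.05. Values after a gene are log2 fold changes with their SE, the fold change over the square root of F. The edgeR fit alone was run on simulated counts with known changes, in knockdown against control. Alternatives were DESeq2 1.42.0, limma voom 3.58.1, other scaling factors, no filter, only the groups compared, a replicate block, a test against 1.5-fold, each library left out and limits of 5 and 20 CPM. Library numbers were shared between groups, but correlations of same-numbered deviations were all under 0.1, so the numbers were not taken as pairs. KRAB, SCAN and finger patterns were searched in GENCODE v29 coding sequences. Genes named are, per contrast and direction, the 10 largest called changes whose libraries did not overlap. The 5 highest members, those at the limit, the leading genes of each gene list and genes under the limit that met the switched criterion are also named. ZNF253, ZNF430, ZNF140, ZNF84, ZNF891, ZNF141, ZNF431 and ZNF358 were added after their values were seen. Also named outside this rule are ZNF93, ZNF503, ZNF512, ZNF555, TRIM28, ATF7IP, GATAD2A, ZBTB16, ZBTB22, ZKSCAN8 and ZFP36. Intervals cover counting error only. Further genes of the luminal marker list are not reported here. The members and lists were chosen with earlier results of these data known.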

Additional observations from a re-analysis of the deposited data

How the results depend on the processing

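Directions of the genes named did not reverse under any alternative run: of the values recomputed for them, 1662 kept their side of the threshold and 225 were no longer called, most often when 1 library was left out or in the test against a fold change of 1.5. The test against 1.5-fold left 5 members higher and 2 lower in knockdown against control, 0 and 0 for rescue over knockdown (3 at an unadjusted p under 0.05) and 4 and 4 in rescue against control, and among all tested genes 1141, 113 and 1482. With a limit of 20 CPM the members called higher were 12 for knockdown over control and 16 for rescue over control, and the knockdown against control median was -0.06939; with a limit of 5 CPM, 1 member, ZNF555, was called at 4-fold in knockdown against control. These follow from the stricter test and the smaller or larger set.

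With each library left out in turn, the members higher and lower were 20 to 28 and 39 to 49 in knockdown against control, 5 to 13 and 10 to 27 for rescue over knockdown, and 18 to 29 and 51 to 69 in rescue against control. All tested genes called ranged over 4858 to 5788, 1196 to 2364 and 5809 to 6995, with 1196 in rescue against knockdown without rescue replicate 1. Member medians ranged over -0.05251 to -0.004459, -0.0695 to -0.03893 and -0.1269 to -0.06686, and called members at 4-fold were 0 to 0 throughout. The cause of the lower counts was not tested. The library numbers were not taken as pairs, and 5 of 9 libraries matched their own number best; with a replicate block, 30 members were higher and 53 lower in knockdown against control, 12 and 28 for rescue over knockdown, and 32 and 74 in rescue against control. DESeq2, limma voom, RLE and upper-quartile factors, no filter and the fit of 2 groups gave counts within 1.5 times of the main ones. At a mean of 10 CPM the SE of a log2 fold change was about 0.17 (ZNF184), so small changes of the lowest members were not detectable.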

Other observations

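Related zinc finger families that the ZNF symbol leaves out were measured in the same fit. Of 32 ZBTB genes at 10 CPM or more, 5 were higher and 6 lower in knockdown against control, 34.4%, against 32.1% of all tested genes and 41.8% of those at 10 CPM or more. ZBTB16 (PLZF), an androgen-responsive repressor in prostate cells, averaged 40.4 ± 3.94 CPM in rescue, 34.9 ± 7.9 CPM in knockdown and 8.92 ± 1.21 CPM in control cells (SD, n = 3 each), a log2 fold change of 1.96 ± 0.15, adjusted p = 2.14e-10 by edgeR in knockdown over control, which is beyond that of every ZNF member. ZBTB22 averaged 28.6 ± 0.513, 20 ± 0.9 and 28.1 ± 2.34 CPM in rescue, knockdown and control cells (rescue over knockdown 0.52 ± 0.11, adjusted p = 0.00124). Of 7 ZSCAN genes 0 were higher and 4 lower in knockdown against control (57.1%), and of 3 ZKSCAN genes 0 and 2. ZKSCAN8 was at -0.70 ± 0.11, adjusted p = 1.08e-05. Of 10 ZFP genes 2 were higher and 0 lower, and ZFP36, an RNA-binding protein with CCCH rather than C2H2 fingers that destabilizes AU-rich mRNAs, averaged 34 ± 1.91, 44.2 ± 7.95 and 26.5 ± 2.5 CPM in rescue, knockdown and control cells.

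Under the limit, ZNF681 and ZNF785 were higher in rescue than in knockdown cells. ZNF785 had 169, 192 and 304 counts in rescue libraries and 65, 84 and 60 counts in knockdown libraries (1.64 ± 0.23, adjusted p = 1.27e-05). ZNF681 had 97, 107 and 135 and 34, 30 and 24 counts (1.94 ± 0.33, adjusted p = 1.50e-04). ZNF608 went the other way, with 29, 70 and 42 counts in rescue, 199, 143 and 172 counts in knockdown and 91, 64 and 115 counts in control libraries (rescue over knockdown -1.88 ± 0.27, adjusted p = 1.68e-05).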
